A study of Mus musculus with 12 samples.

Results

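The usage of the T cell receptor (TCR) β variable genes TCRBV20-01, TCRBV23-01, TCRBV24-01 and TCRBV30-01 was analysed. The genes were chosen by name, and every rearrangement that the files assign to one of them was kept, which gave 18825 of 288925 rearrangements and 4 of 35 V genes. TCRBV20-01 had 8767 rearrangements, TCRBV24-01 had 7696, TCRBV23-01 had 1471 and TCRBV30-01 had 891. The members were compared by the reading frame of their rearrangements, by their share of each repertoire and by the clones that they form.

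The 12 libraries came from 3 independent experiments (named A, B and C), with 1 library of each of 4 groups in each experiment. All mice were female C57BL/6, were 7 to 10 weeks old at the start, carried the MC38 colon adenocarcinoma under the skin and received anti-CTLA-4 and anti-PD-L1 antibodies (Abs), so that no untreated group enters the comparisons. Cells were taken 2 weeks after the start of therapy, and each library is treated as pooled cells of several mice, since the labels name no single animals. The groups were CD27lo CX3CR1-, CD27hi CX3CR1- and CX3CR1+ CD8+ T cells sorted from the spleen, and CD8+ tumor-infiltrating lymphocytes (TILs) isolated by CD8a selection. CX3CR1 is a chemokine receptor of effector CD8+ T cells and CD27 a costimulatory receptor. The labels write CX3CR1 low and high for negative and positive. Genomic DNA was sequenced, which holds no expression values, so that the sorted cell types could not be checked against markers. Libraries held 5893 to 113660 productive templates (a template is an estimated DNA copy of a rearrangement), and the TILs of experiment A were the shallowest. Percents of single libraries carry counting error only, given below as 95% Wilson intervals (CI).

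A TCRβ chain is built in the thymus by joining 1 V, 1 D and 1 J gene, with bases trimmed and added at the joints. The joined region, the third complementarity determining region (CDR3), runs from a conserved cysteine at the end of the V gene into the J gene and touches the antigen peptide. Because the number of bases gained or lost is random, about 1 in 3 joints keeps the reading frame. A T cell must make 1 working chain, but its other chromosome may keep a failed rearrangement, which is carried along when the cell divides. In genomic DNA both are read, so that out-of-frame rearrangements show V gene use before selection of the chain.

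The last bases of the V genes differ at the codon that in most V genes encodes a tyrosine ahead of the CDR3. The commonest form of each gene is shown from 21 bases before the cysteine codon to 9 bases from its start on, 5′ to 3′, with the codon that starts 6 bases before the cysteine codon in capitals. They are shown because 1 base at this codon sets TCRBV24-01 apart. TCRBV26-01, whose gene is the next one downstream of TCRBV24-01 that RefSeq does not list as a pseudogene, is added for comparison.
TCRBV20-01: gaagacagaggcttaTATctctgtggtgct
TCRBV23-01: gaagactcagcactgTACttgtgctccagc
TCRBV24-01: gacgactcagcactgTAGctctgtgccagc
TCRBV30-01: ggagacagcagtatcTATttctgtagttct
TCRBV26-01: ggagactcagcactgTACctctgtgccagc
These forms were found in 87.7%, 98.4%, 96.8%, 86.9% and 98.3% of the rearrangements of each gene in this order. Counted from 1 at the first base shown, TCRBV24-01 differed from TCRBV26-01 by G2A, A3C and C18G and shared the other 27 bases. C18G turns the tyrosine codon TAC into TAG, a stop codon.

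In TCRBV24-01 a stop codon in frame with the cysteine stood ahead of the CDR3 in 7683 of 7694 rearrangements with enough sequence to read it (99.9%), and the codon was TAG at this place in 7676. Among the rearrangements of this gene that the files call In, which is the term for productive, 2327 of 2335 carried it. The other 21 V genes with 100 or more rearrangements had such a codon in at most 0.302% of theirs (TCRBV21-01). TCRBV20-01 had it in 4 of 8766 rearrangements, TCRBV23-01 in 1 of 1471 and TCRBV30-01 in 0 of 891. The 11 TCRBV24-01 rearrangements without it had at most 2 templates each. The call In is therefore a statement on the CDR3 alone for this gene, whose Vβ17 chain is made in some inbred strains but not in C57BL/6 mice, and the word productive is used below as the files use it. All 7696 rearrangements were assigned to allele 02 of TCRBV24-01, and the other members were all assigned to allele 01.

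The members lie in the TCRβ locus on chromosome 6 (GRCm38.p6, RefSeq, matched by family number). Trbv20 (older name Tcrb-V15) spans 41188273 to 41188977, Trbv23 (Tcrb-V20) 41216073 to 41216526, Trbv24 (Tcrb-V17) 41218091 to 41218557, and Trbv30 (Tcrb-V18) 41281376 to 41281990. RefSeq lists all 4 as V segments and none as a pseudogene. Trbv23 and Trbv24 are neighbours with 1564 bases between them. Trbv30 is the last V gene before the D, J and constant genes, which lie in the 275702 bases between it and Trbv31.

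The first question was how often each member gave a productive rearrangement. Of all V genes, 71.3% of rearrangements were In, 27.7% Out (out of frame) and 1.07% Stop (in frame, with a stop codon in the CDR3). TCRBV24-01 gave 2335 In, 5136 Out and 225 Stop, so that 33.3% were in frame, near the 1 in 3 of random joining. The 95% CI of 32.2% to 34.3% contains 1 in 3, but it treats rearrangements pooled over libraries as independent. Some clones recur in several libraries of an experiment, so the interval is too narrow. In single libraries 28.6% to 35.3% of TCRBV24-01 rearrangements were in frame. TCRBV20-01 gave 5333 In, 3365 Out and 69 Stop, and 61.6% were in frame. TCRBV23-01 gave 997 In, 456 Out and 18 Stop (69.0% in frame), and TCRBV30-01 gave 605 In, 281 Out and 5 Stop (68.5% in frame).

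In the 12 libraries the percent productive of TCRBV24-01 had a lowest value of 26.3% and a highest of 34.0%. No library of TCRBV20-01 was as low, with 51.8% to 62.3%, and the same held for TCRBV23-01 with 57.1% to 100% and for TCRBV30-01 with 40% to 72.0%. The widest ranges belong to the TILs, in which TCRBV23-01 had 6 to 26 rearrangements and TCRBV30-01 had 5 to 8. The TILs of experiment B held 6 TCRBV23-01 rearrangements and none out of frame.

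Against all other V genes of the same library, TCRBV24-01 was lower by 40.5 percentage points ± 3.08 (SD), in 12 of 12 libraries (mean 30.8% against 71.3%, exact sign-flip permutation test, two-sided p = 0.000488, the smallest that 12 libraries allow, adjusted p = 0.00115). TCRBV20-01 was lower by 11.0 points ± 1.97 in 12 of 12 libraries with the same exact p. TCRBV30-01 was lower by 6.46 points ± 7.46, in 11 of 12 libraries (exact permutation p = 0.00146, adjusted p = 0.00212). TCRBV23-01 differed by -0.53 points ± 11.1, less than its spread (exact permutation p = 0.926). Being lower was common, since 46.2% of the 26 V genes seen in every library passed this test in this direction. TCRBV24-01 was the lowest but 2 of these genes, after TCRBV10-01 and TCRBV22-01, which had 185 and 744 rearrangements in all. Libraries of an experiment share mice, so the 12 libraries are not independent in this test or in the later tests over 12 libraries. With the mean of each experiment as the unit, the smallest p of the exact sign-flip test is 0.25.

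**Figure D1:**
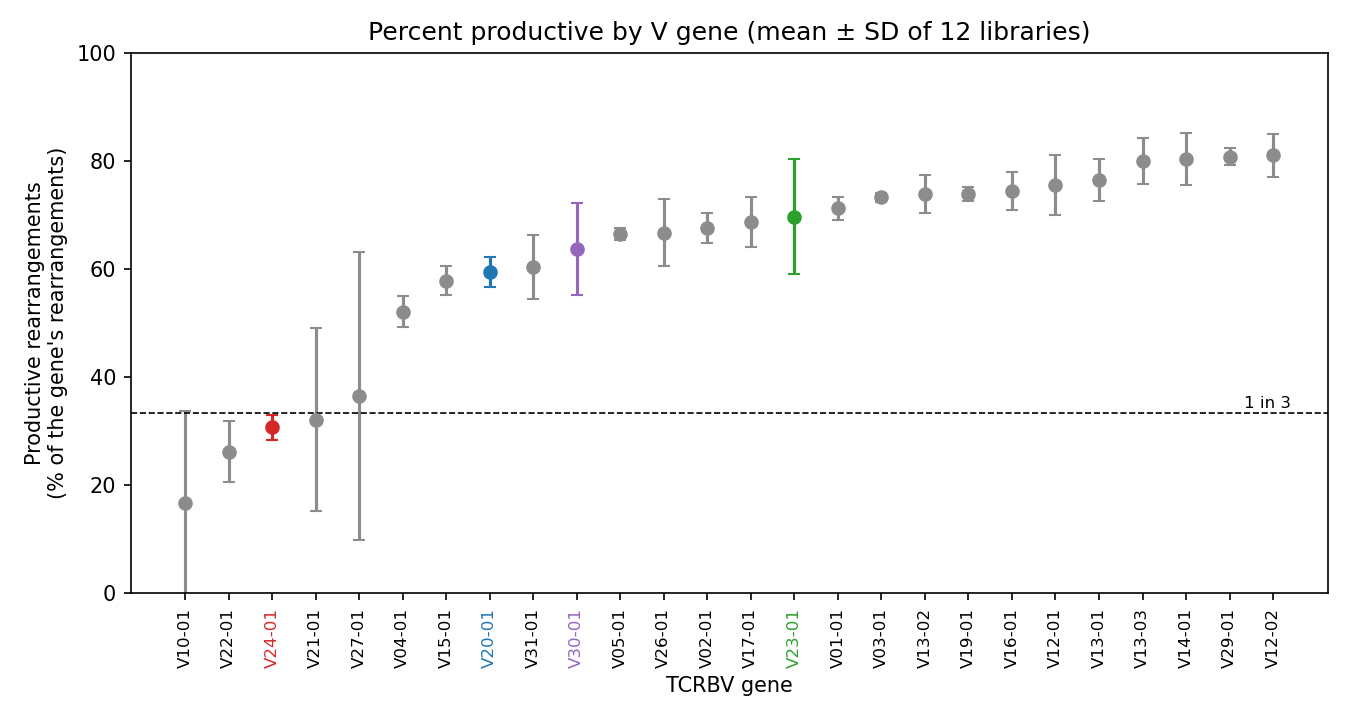
Percent productive of each V gene found in all 12 libraries, as mean ± SD over libraries, ordered from the lowest; the members are in colour (TCRBV24-01 red, TCRBV20-01 blue, TCRBV30-01 purple, TCRBV23-01 green). TCRBV24-01 (30.8% ± 2.32) lies just below the dashed line of 1 in 3, with a smaller SD than the other genes near that line, and the other 3 members lie between 59.5% and 69.7%. The line is the share of joints in frame at random, while the plotted percent leaves out Stop rearrangements, which are also in frame. With them, 33.3% of all TCRBV24-01 rearrangements were in frame.

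Stop codons inside the CDR3 were also more frequent for TCRBV24-01. They were found in 7.94% ± 2.99 (SD, 12 libraries) of its in-frame rearrangements, with a range of 3.61% to 14.3%, against 1.39% for all other V genes, and the value was higher in 12 of 12 libraries (exact sign-flip permutation p = 0.000488, adjusted p = 0.00187). In 13% of the 23 genes tested the share was higher in this way. The shares of TCRBV20-01 (1.07% ± 0.990) and TCRBV23-01 (2.68% ± 3.53) did not differ from the other genes beyond their spread (exact permutation p = 0.190 and 0.304). TCRBV30-01 was among the genes tested and had 5 stop codons among 610 in-frame rearrangements (0.820%). Most libraries held none, so its test by library is not read here.

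The next question was how much of each repertoire the members make up. Over unique productive rearrangements, where each clone counts once, TCRBV20-01 made up 2.59% ± 0.340 (SD, 12 libraries), TCRBV24-01 1.15% ± 0.157, TCRBV23-01 0.516% ± 0.128 and TCRBV30-01 0.275% ± 0.0656. They held ranks 18, 20, 21 and 22 of 35 V genes. The ranges of the members did not overlap with each other. TCRBV20-01 was within the spread of its neighbours in rank, TCRBV17-01 (2.64% ± 0.147) and TCRBV31-01 (2.55% ± 0.667), and TCRBV30-01 overlapped with TCRBV21-01 below it (0.145% ± 0.0756). Among out-of-frame rearrangements TCRBV24-01 held rank 5 with 6.11% ± 0.672, and TCRBV20-01 rank 12 with 4.21% ± 0.323. TCRBV23-01 had 0.547% ± 0.196 and TCRBV30-01 0.365% ± 0.0736 of them, at ranks 23 and 24. Levels of different genes rest on the assay's own correction for primer efficiency.

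Between the groups no member's share of rearrangements passed the contrasts tested. TCRBV20-01 made up 2.71%, 2.31% and 2.59% of productive rearrangements of CD27lo CX3CR1- cells in experiments A, B and C, and 2.68%, 2.61% and 2.62% of those of CD27hi CX3CR1- cells. In CX3CR1+ cells its share was 2.46%, 2.50% and 2.28%, and in TILs 3.38%, 2.90% and 2.02%. The TILs lie on both sides of the splenic subsets, and CX3CR1+ cells lie below CD27hi CX3CR1- cells in each experiment. The mean of CX3CR1+ cells and TILs minus the mean of the CX3CR1- subsets within an experiment (called the clonal contrast here) was 0.0046 percentage points ± 0.397 (SD, n = 3, exact permutation within experiments, p = 0.991). The contrast was 0.09 ± 0.17 points for TCRBV23-01, 0.02 ± 0.22 for TCRBV24-01 and -0.05 ± 0.07 for TCRBV30-01 (exact permutation p = 0.278, 0.741 and 0.157). None of the 4 members passed the threshold of 0.05, against 14.3% of the 35 V genes. With CX3CR1+ cells alone against the CX3CR1- subsets none passed either (exact permutation p of at least 0.111), against 8.57% of V genes. TCRBV30-01 had a lower share in TILs than in CX3CR1+ cells in 3 of 3 experiments (-0.08 points ± 0.07, exact permutation p = 0.25, the smallest possible for pairs).

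Shares of templates, which weight each clone by its size, were lower for TCRBV20-01 and TCRBV30-01 in CX3CR1+ cells and TILs at an unadjusted exact p under 0.05. TCRBV20-01 made up 2.87%, 2.35% and 2.47% of productive templates in CD27lo CX3CR1- cells and 2.74%, 2.66% and 2.70% in CD27hi CX3CR1- cells. It made up 2.22%, 1.75% and 1.19% in CX3CR1+ cells and 1.09%, 1.61% and 0.382% in TILs. Each of these 6 libraries lies below all 6 CX3CR1- libraries. The clonal contrast was -1.26 points ± 0.49 (SD), lower in 3 of 3 experiments (exact permutation p = 0.00926, the smallest that the design allows, adjusted p = 0.081 over 35 genes).

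TCRBV30-01 made up 0.261%, 0.303% and 0.259% of templates in CD27lo CX3CR1- cells and 0.298%, 0.289% and 0.291% in CD27hi CX3CR1- cells. In CX3CR1+ cells it made up 0.117%, 0.378% and 0.0897%. In TILs it made up 0.0509%, 0.0404% and 0.0143%, from 3, 5 and 3 templates. The TILs were below every splenic library, while the CX3CR1+ cells of experiment B were above every other library. Of the TIL values, 2 stand at the floor of 3 templates, which is 0.0509% in experiment A and 0.0143% in experiment C. The clonal contrast was -0.17 points ± 0.07, lower in 3 of 3 experiments (exact permutation p = 0.0278, adjusted p = 0.108).

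TCRBV24-01 made up 1.14%, 1.31% and 1.00% of templates in CD27lo CX3CR1- cells and 1.22%, 1.23% and 1.07% in CD27hi CX3CR1- cells. Its share was 0.380%, 1.36% and 1.13% in CX3CR1+ cells and 0.339%, 0.840% and 0.301% in TILs. All TIL values were below the CX3CR1- subsets, but those of CX3CR1+ cells were so only in experiment A. The clonal contrast was -0.44 points ± 0.34 (exact permutation p = 0.0833), and it was -0.25 points without experiment A.

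TCRBV23-01 made up 0.506%, 0.589% and 0.486% of templates in CD27lo CX3CR1- cells and 0.589%, 0.489% and 0.451% in CD27hi CX3CR1- cells. It made up 0.642%, 0.147% and 0.371% in CX3CR1+ cells and 0.543%, 0.105% and 2.11% in TILs. The values of CX3CR1+ cells and TILs spread to both sides of the CX3CR1- subsets, and the clonal contrast of 0.14 points ± 0.60 was within its spread (exact permutation p = 0.935). The TILs of experiment C stand apart, with 443 templates of this gene in 19 rearrangements.

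By the clonal contrast, 2 of the 4 members were lower in templates at an unadjusted exact p under 0.05, against 22.9% of all 35 V genes. No V gene passed after adjustment over all 35. A share is relative, so that fewer templates of a gene and more templates of other genes cannot be told apart. In CX3CR1+ cells alone, 1 of the 4 members passed as lower, TCRBV20-01 at -0.91 points ± 0.43 (exact permutation p = 0.037, the smallest possible, adjusted p = 0.118), against 28.6% of V genes. TILs were below CX3CR1+ cells in 3 of 3 experiments in templates of TCRBV20-01 (-0.69 points ± 0.51), TCRBV24-01 (-0.46 ± 0.40) and TCRBV30-01 (-0.16 ± 0.15), a comparison of pairs in which the smallest exact p is 0.25.

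**Figure D2:**
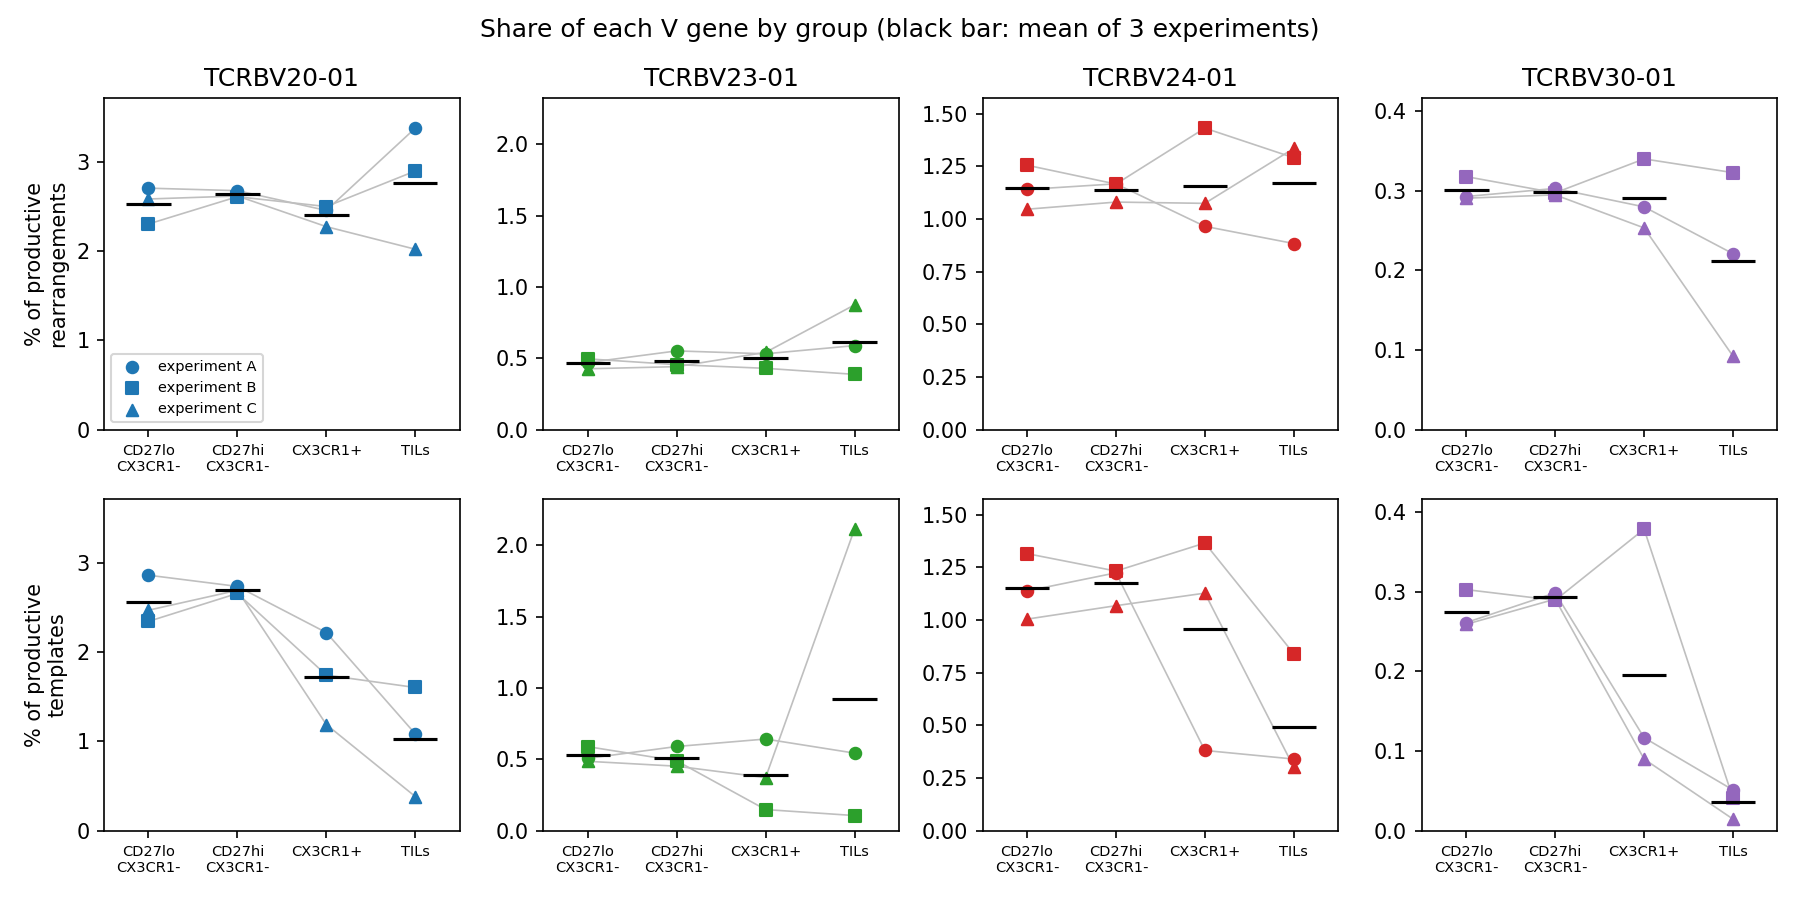
Share of each member among productive rearrangements (top) and productive templates (bottom), in percent, by group; points are single libraries joined by experiment, and black bars are means of 3 experiments. The TCRBV20-01 share of templates falls from means of 2.56% and 2.70% in the CX3CR1- subsets to 1.72% in CX3CR1+ cells and 1.02% in TILs, while its share of rearrangements stays between 2.41% and 2.77%.

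The lower share of TCRBV20-01 templates did not pass the test once the most abundant clones were left out. Of the 100 most abundant productive rearrangements of each library, taken over 3 experiments, 5 of 300 were TCRBV20-01 in CX3CR1+ cells and 2 of 300 in TILs, against 9 of 300 in CD27hi CX3CR1- cells and 7 of 300 in CD27lo CX3CR1- cells. Without these clones TCRBV20-01 made up 2.63% ± 0.753 of the remaining templates in CX3CR1+ cells, 2.39% ± 0.903 in TILs, 2.70% ± 0.0535 in CD27hi CX3CR1- cells and 2.58% ± 0.146 in CD27lo CX3CR1- cells (SD, n = 3). The clonal contrast was then -0.13 points (exact permutation p = 0.546). The clones left out held a larger part of all templates in CX3CR1+ cells and TILs than in the CX3CR1- subsets, so the removal was unequal between groups. TCRBV30-01 had 1 clone in 300 in CX3CR1+ cells and none in the other groups, so that in TILs only the total fell. Its mean share in TILs was 0.0352% with the most abundant clones and 0.121% ± 0.0587 without them. Without them it was 0.255% ± 0.0559 in CX3CR1+ cells, 0.288% ± 0.0245 in CD27lo CX3CR1- cells and 0.297% ± 0.00527 in CD27hi CX3CR1- cells.

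The reading frame was also compared between groups. Over all V genes, 70.6% to 72.1% of rearrangements were productive in the CX3CR1- subsets, 70.0% to 70.8% in CX3CR1+ cells and 67.1% to 68.5% in TILs. The percent productive of TCRBV20-01 was 61.8%, 60.1% and 61.7% in CD27lo CX3CR1- cells, 62.3%, 60.9% and 60.6% in CD27hi CX3CR1- cells, 59.5%, 60.1% and 57.7% in CX3CR1+ cells and 59.7%, 58.4% and 51.8% in TILs. The groups overlap, since the CX3CR1+ and the CD27lo CX3CR1- cells of experiment B are both at 60.1%. The clonal contrast was -3.35 points ± 2.71 (exact permutation p = 0.0185, adjusted p = 0.138), with the largest difference in experiment C (-6.40 points), and it was -1.83 points without that experiment. All V genes other than TCRBV20-01 had a contrast of -2.24 points ± 0.19, and relative to them that of TCRBV20-01 was -1.11 points ± 2.68 (exact permutation p = 0.278), lower in 1 of 3 experiments. TCRBV20-01 was the 1 member of 4 that passed before this step, a share near the 26.9% of the 26 V genes. The contrast was 3.72 points ± 10.6 for TCRBV23-01, 0.40 ± 3.18 for TCRBV24-01 and -7.56 ± 10.1 for TCRBV30-01, each within its spread (exact permutation p = 0.769, 0.731 and 0.167). Among out-of-frame rearrangements no member passed, against 5.71% of V genes in either direction and 2.86% as lower. The largest difference was that of TCRBV24-01 (6.46% in the CX3CR1- subsets, 5.76% in CX3CR1+ cells and TILs, -0.70 points ± 0.38, exact permutation p = 0.0648).

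Next, the clones of each member were examined in CX3CR1+ cells and TILs, where a clone was called expanded at 0.1% or more of the productive templates of its library. TCRBV20-01 had 9 expanded among 577 productive rearrangements in CX3CR1+ cells and 2 among 135 in TILs. TCRBV24-01 had 7 among 272 and 3 among 61, TCRBV23-01 had 1 among 124 and 3 among 33, and TCRBV30-01 had 1 among 68 and 0 among 10. Of all V genes, 1.71% of productive rearrangements were expanded in CX3CR1+ cells and 7.36% in TILs. The 1.56% of TCRBV20-01 in CX3CR1+ cells was near that value, and its 1.48% in TILs was below it. In the CX3CR1- subsets the members had a single expanded clone, a TCRBV20-01 clone in the CD27lo CX3CR1- cells of experiment A.

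Expanded clones held 42.2% ± 11.6 (SD, n = 3) of TCRBV20-01 templates in CX3CR1+ cells, against 62.2% ± 3.09 for all V genes. In TILs they held 0%, 59.8% and 0% of TCRBV20-01 templates in experiments A, B and C, 68.8%, 0% and 86.5% of TCRBV23-01 templates and 0%, 73.1% and 0% of TCRBV24-01 templates. All V genes reached 74.0% ± 5.61 in TILs. For these 3 members, 1 to 3 expanded clones thus held most templates in some TIL libraries, and no clone was expanded in the others. The plot of expanded clones shows this as TIL bars that are either mostly red or wholly grey.

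**Figure D3:**
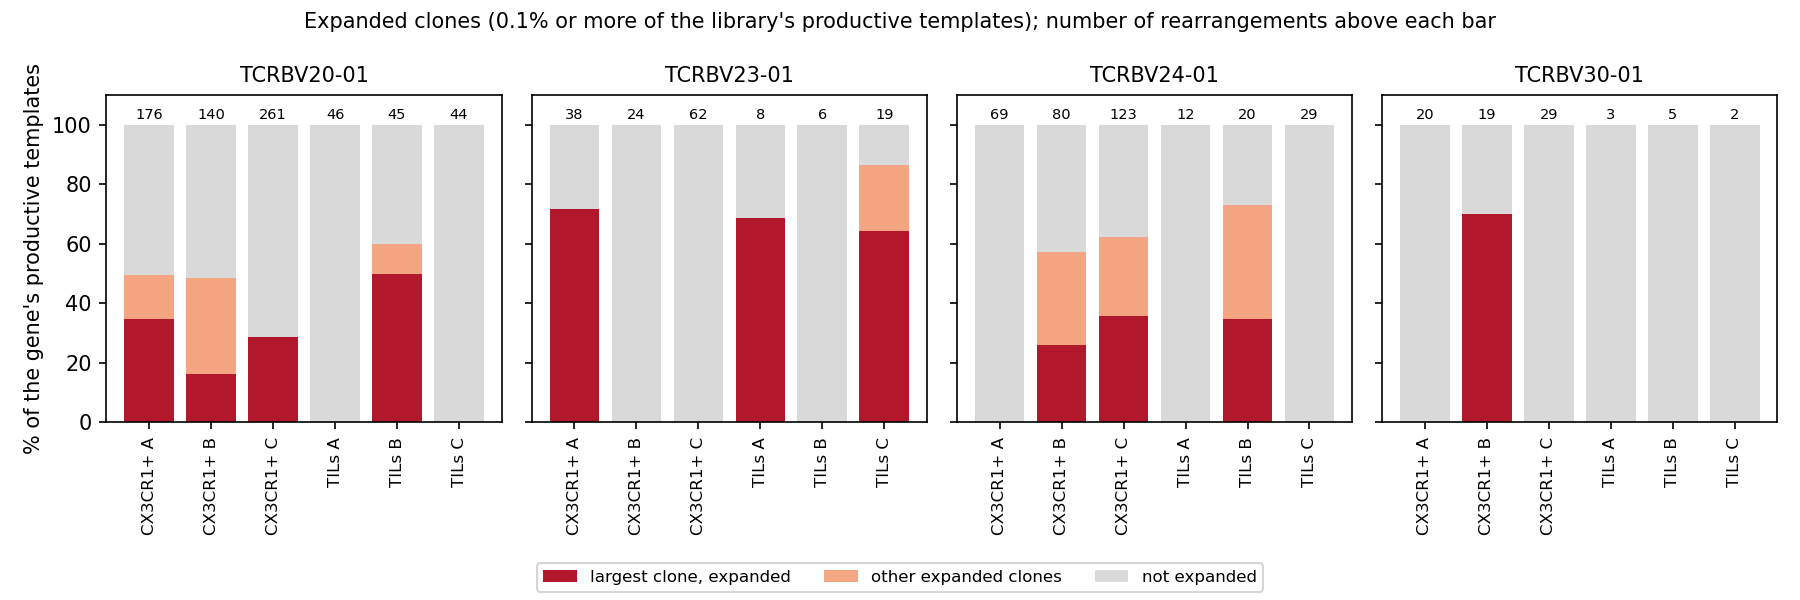
Share of each member's productive templates, in percent, held by its largest expanded clone (dark red), its other expanded clones (light red) and clones below 0.1% of the library (grey), for each CX3CR1+ and TIL library; the numbers above the bars are unique productive rearrangements. In 11 of the 24 bars there is an expanded clone, and TCRBV30-01 has one only in the CX3CR1+ cells of experiment B.

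The clones at 0.5% or more of a library are shown with the clones that bear on the comparison of spleen and tumor. Each sequence runs 5′ to 3′ from the cysteine codon of the CDR3 to the end of the read, which stops 3 bases short of the end of the CDR3, and capitals mark the bases between the end of the V gene and the start of the J gene.
TCRBV20-01 with TCRBJ01-05, CX3CR1+ experiment A: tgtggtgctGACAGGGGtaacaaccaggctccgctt
TCRBV20-01 with TCRBJ02-07, TILs experiment B: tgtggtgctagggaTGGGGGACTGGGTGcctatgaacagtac
TCRBV23-01 with TCRBJ02-02, TILs experiment C: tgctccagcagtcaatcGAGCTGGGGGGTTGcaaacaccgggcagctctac
TCRBV23-01 with TCRBJ01-04, CX3CR1+ experiment C: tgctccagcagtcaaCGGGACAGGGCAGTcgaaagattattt
TCRBV30-01 with TCRBJ02-07, CX3CR1+ experiment B: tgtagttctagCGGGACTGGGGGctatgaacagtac
The TCRBV20-01 clone of experiment A had 429 templates, 0.769% of the CX3CR1+ library (95% CI 0.700% to 0.845%) and 34.6% of the templates of this gene there. It was found with 8 templates in CD27lo CX3CR1- and 7 in CD27hi CX3CR1- cells and with 0 templates in the TILs of that experiment, where 0 allows up to 0.0509%. The TCRBV20-01 clone of experiment B was the only one at 0.5% or more that TILs and CX3CR1+ cells shared at an expanded level, with 99 templates (0.799%, CI 0.657% to 0.972%) in TILs and 144 (0.282%) in CX3CR1+ cells. It held 49.7% of the TCRBV20-01 templates of these TILs.

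By share of its library, the largest productive clone of any member was the TCRBV23-01 clone of the TILs of experiment C, with 285 templates (1.36%, CI 1.21% to 1.53%), which was 14th by size in that library. In CX3CR1+ cells of the same experiment it had 31 templates (0.0273%), so that it was below the expanded level there, and it had 0 in both CX3CR1- subsets. The second TCRBV23-01 clone of these TILs had 98 templates (0.468%) and 85 in CX3CR1+ cells (0.0748%), where it was the largest of its gene. The largest alone held 64.3% of the 443 TCRBV23-01 templates of these TILs, the library that stood apart in its share. In the CX3CR1+ cells of experiment A, 1 TCRBV23-01 clone held 257 templates (0.461%), 71.8% of those of this gene, and it had 0 templates in TILs. In the TILs of experiment A, the largest TCRBV23-01 clone held 22 of 32 templates (68.8%) and was found in no splenic subset.

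TCRBV30-01 had its largest clone in the CX3CR1+ cells of experiment B, with 135 templates (0.265%), 69.9% of the 193 templates of this gene there and 0 templates in TILs. That library was the one with the highest TCRBV30-01 share. In TILs no TCRBV30-01 clone had more than 2 templates. No clone named here was found in another experiment.

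Clones with the TCRBV24-01 stop codon also reached high counts. The reads of the largest in-frame and of the largest out-of-frame rearrangement are shown in full (87 bases, 5′ to 3′) with the stop codon ahead of the CDR3 in capitals.
TCRBV24-01 with TCRBJ02-07, In, CX3CR1+ experiment C: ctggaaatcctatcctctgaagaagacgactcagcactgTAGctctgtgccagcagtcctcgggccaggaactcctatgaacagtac
TCRBV24-01 with TCRBJ02-07, Out, CX3CR1+ and TILs experiment C: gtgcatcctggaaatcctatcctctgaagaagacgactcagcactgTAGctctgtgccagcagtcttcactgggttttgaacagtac
The in-frame rearrangement had 456 templates (0.401% of productive templates, CI 0.366% to 0.440%) in CX3CR1+ cells, 2 in CD27hi CX3CR1- cells and 0 in TILs. The out-of-frame rearrangement had 657 templates in CX3CR1+ cells, 542 in TILs, 8 in CD27lo CX3CR1- and 0 in CD27hi CX3CR1- cells. It was the most abundant out-of-frame rearrangement of these TILs, with 6.97% of their out-of-frame templates. By templates, 5.81% of TCRBV24-01 was productive in these TILs, against 25.0% and 37.5% in the TILs of experiments A and B.

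In CX3CR1+ cells, productive and out-of-frame rearrangements of TCRBV24-01 differed in size by less than the spread between experiments. A productive rearrangement of this gene had on average 7.40 ± 3.84 templates in CX3CR1+ cells (SD, n = 3) and an out-of-frame one 7.53 ± 3.49. In TILs the means were 3.01 ± 1.91 and 8.11 ± 8.56. For TCRBV20-01 they were 6.20 ± 0.941 and 4.84 ± 1.34 in CX3CR1+ cells, for TCRBV23-01 6.45 ± 3.16 and 2.55 ± 1.26, and for TCRBV30-01 5.64 ± 3.91 and 3.96 ± 1.90. All V genes had 8.95 ± 1.07 and 9.21 ± 3.30. At the same minimum number of templates, 13 of 614 out-of-frame TCRBV24-01 rearrangements were expanded in CX3CR1+ cells (2.12%) and 7 of 272 productive ones (2.57%). In the CX3CR1- subsets the mean sizes of the members lay between 1.20 and 1.60 templates in either frame.

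The clones of TILs were then looked up in the splenic subsets of the same experiment, as the share of a member's productive TIL templates whose nucleotide rearrangement was found there. For TCRBV20-01, 6.25%, 75.4% and 35.0% of TIL templates (of 64, 199 and 80) were found in CX3CR1+ cells in experiments A, B and C. In CD27lo CX3CR1- cells 0%, 10.1% and 0% were found and in CD27hi CX3CR1- cells 4.69%, 2.51% and 5.00%. CX3CR1+ cells were the highest in each experiment, but in experiment A the values of CX3CR1+ and CD27hi CX3CR1- cells rest on 2 and 3 rearrangements. The value in CX3CR1+ cells was higher than the mean value in CX3CR1- subsets by 35.2 points ± 32.7, in 3 of 3 experiments (exact permutation p = 0.037, the smallest possible, adjusted p = 0.0608).

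For TCRBV24-01, 15.0%, 91.3% and 52.4% of TIL templates (of 20, 104 and 63) were found in CX3CR1+ cells, 0%, 26.9% and 28.6% in CD27lo CX3CR1- cells and 0%, 43.3% and 30.2% in CD27hi CX3CR1- cells. In experiment A the value in CX3CR1+ cells rests on 1 of 12 TIL rearrangements. The difference was 31.4 points ± 21.9 (exact permutation p = 0.037, adjusted p = 0.0608). Without experiment B the differences fell by more than a factor of 1.5, to 18.2 points for TCRBV20-01 and 19.0 points for TCRBV24-01. For TCRBV23-01, 0%, 76.9% and 98.2% of TIL templates (of 32, 13 and 443) were found in CX3CR1+ cells, a difference of 48.5 points ± 47.7 (exact permutation p = 0.111), which was 25.0 points without experiment C. For TCRBV30-01, 0 of 3, 0 of 5 and 3 of 3 TIL templates were found in CX3CR1+ cells, and 0 in the CX3CR1- subsets (exact permutation p = 0.333).

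Thus 2 of the 4 members passed this test, and 60.9% of the 23 V genes with TIL templates in every experiment did. Over all V genes, 63.9%, 85.6% and 85.8% of TIL templates were found in CX3CR1+ cells, so that TCRBV20-01 and TCRBV24-01 were below the sum of all V genes in 3 and 2 of 3 experiments. In the CX3CR1- subsets, all V genes reached 50.0% ± 11.7 (CD27lo) and 44.9% ± 14.7 (CD27hi), against 3.35% ± 5.80 and 4.07% ± 1.35 for TCRBV20-01. Splenic libraries differed in depth, and the difference kept its direction and its side of the threshold for each member when they were drawn down to the shallowest of them. Of 18 expanded clones of the members in CX3CR1+ cells, 7 were found in TILs, and of 8 expanded clones in TILs, 7 were found in CX3CR1+ cells. Over all V genes these shares were 57.6% (238 clones) and 82.1% (307 clones).

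**Figure D4:**
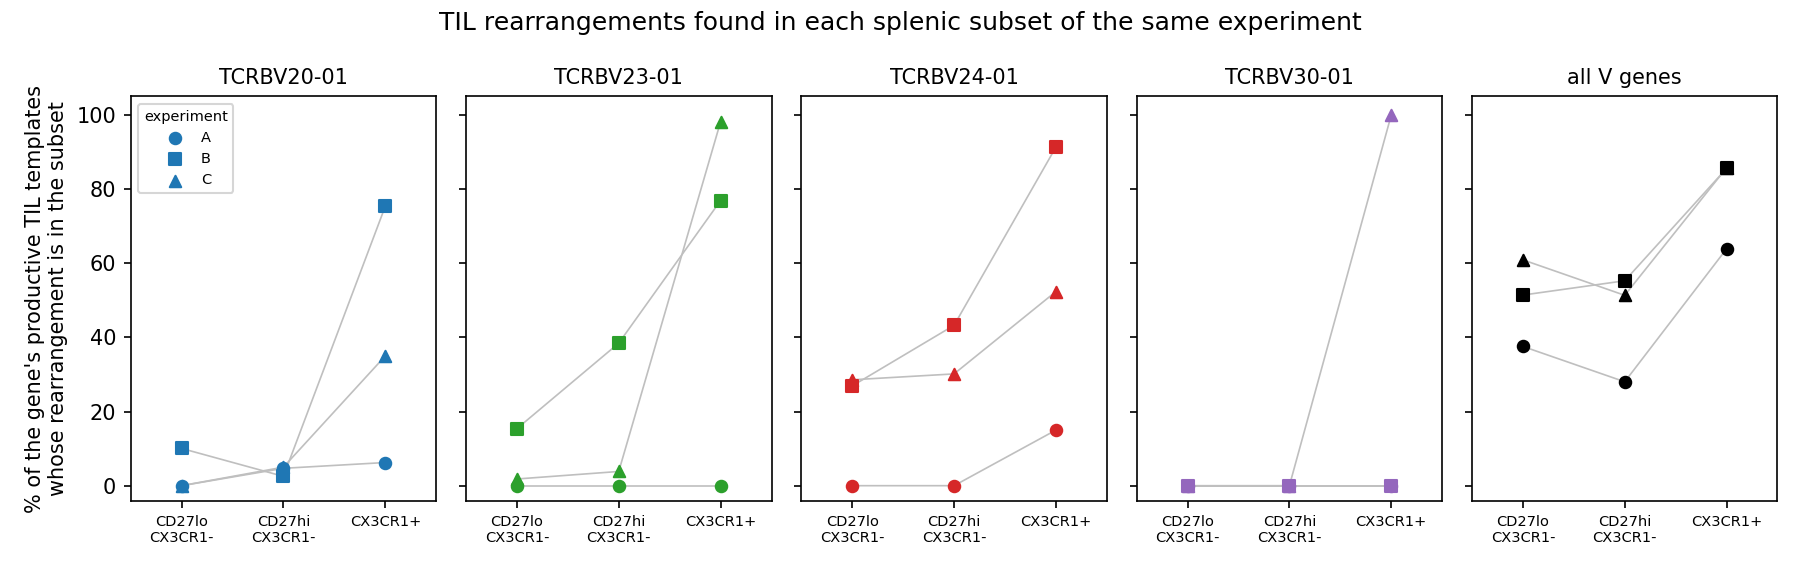
Percent of each member's productive TIL templates whose rearrangement was found in each splenic subset of the same experiment, with all V genes at the right; points are experiments A, B and C, joined by lines. In experiment A the TIL templates of the members stay at or below 15.0% in each subset, while those of all V genes reach 63.9% in CX3CR1+ cells.

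The members also differed in their junctions, compared with all other V genes of the same library over productive rearrangements (exact sign-flip permutation tests over 12 libraries). TCRBV20-01 had shorter CDR3s by 2.18 bases ± 0.258 (39.7 against 41.9 bases) and TCRBV30-01 by 2.34 ± 1.05, in 12 and 11 of 12 libraries. TCRBV24-01 had longer ones by 1.02 bases ± 0.285 and TCRBV23-01 by 0.72 ± 0.505, in 12 and 11 of 12 (permutation, adjusted p of at most 0.0016 for each). Such differences were common, as 43.5% of V genes were shorter and 34.8% longer. TCRBV20-01 had lost fewer bases of its V end (1.90 against 2.68, adjusted permutation p = 0.000702), as had 39.1% of V genes, and TCRBV24-01 more (3.20 against 2.65, the same adjusted p), as had 47.8%. The values of TCRBV23-01 and TCRBV30-01 were 2.64 and 2.43 bases, within their spread.

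In J gene use, TCRBV20-01 differed from the other V genes. It was joined to the TCRBJ01 cluster, the upstream of both J clusters, in 42.4% ± 3.95 of productive rearrangements, against 34.0% for all other V genes (higher in 12 of 12 libraries, exact permutation p = 0.000488, adjusted p = 0.0016), which 34.8% of V genes also passed. In its out-of-frame rearrangements the share was 36.8% ± 5.87 against 35.6% (higher in 6 of 12 libraries, exact permutation p = 0.516). Its most used J genes over all libraries were TCRBJ02-07 (19.4% of productive rearrangements) and TCRBJ01-01 (12.5%). TCRBJ02-07 led in each of the other members, with 28.4% in TCRBV30-01, 22.4% in TCRBV23-01 and 17.3% in TCRBV24-01, against 22.0% over all V genes. The second was TCRBJ02-01 in TCRBV30-01 (17.5%) and TCRBV23-01 (11.2%) and TCRBJ02-05 in TCRBV24-01 (12.2%). TCRBV20-01 and TCRBV24-01 used TCRBJ02-07 less than other V genes in 12 of 12 libraries each (by 3.60 points ± 3.00 and 6.10 ± 4.46, adjusted exact permutation p = 0.00187), as did 21.7% of V genes.

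Rearrangements shared between mice of different experiments were seen in CD27hi CX3CR1- cells, the deepest group in unique rearrangements. Of 3493 productive TCRBV20-01 nucleotide rearrangements, 69 (1.98%) were found in 2 or more experiments, close to the 2.01% of all V genes. Sharing was lower in TCRBV24-01, with 6 of 1524 (0.394%), in TCRBV30-01, with 1 of 402 (0.249%), and in TCRBV23-01, with 0 of 649. At the level of CDR3 amino acid sequences, 5.30% of TCRBV20-01 sequences and 0.626% to 1.01% of those of the other members were shared, against 6.23% over all V genes. TCRBV24-01, TCRBV23-01 and TCRBV30-01 also made up less of the productive rearrangements of this group (means of 1.14%, 0.483% and 0.298%) than TCRBV20-01 (2.64%). The sharing values are descriptions with no test, and whether the use of a gene bears on them was not tested.

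By Spearman's rank correlation of the share of productive rearrangements over the 12 libraries, TCRBV20-01 was most like TCRBV26-01 and TCRBV15-01 (rho = 0.734 for both) among the other 22 V genes seen in every library. TCRBV24-01 was most like TCRBV29-01 (0.622) and TCRBV30-01 (0.587), TCRBV30-01 like TCRBV16-01 (0.622) and TCRBV24-01, and TCRBV23-01 like TCRBV31-01 (0.587) and TCRBV17-01 (0.392). The libraries share their denominators and differ in depth, so that these values are descriptions.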

How the data were processed

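Per the labels and methods, the authors prepared libraries of TCRβ rearrangements from DNA with the immunoSEQ survey-level kit, sequenced them on a NextSeq500 and processed them on the immunoSEQ platform. The submitters' notes name the build mm10. The deposited template counts are whole numbers, not normalized. Other columns used as deposited were V and J gene, frame status, CDR3 length, trimmed and inserted bases. From these counts, shares were computed in Python 3.11.15 with numpy 2.4.6, pandas 2.3.3, scipy 1.17.1 and matplotlib 3.10.9. V genes with a resolved name were tested (35, low-use genes kept, and 26 or fewer where every library must hold the gene), and 22 rearrangements without one stayed in totals. Contrasts used exact permutations within experiments (216 arrangements, 27 for splenic cells), two-sided, with Benjamini-Hochberg adjustment over all V genes and the test functions tested on simulated data. The stop codon and junction tests were added after values were seen. The members and lists were chosen with earlier results of these data known. Named clones were the largest of each member in each CX3CR1+ and TIL library and every one at 0.5% or more, of which those that bear on the comparisons are printed. Alternatives were depth (100 draws to 7804 templates), a minimum of 2 templates, family names, non-productive rearrangements, log2 shares, removal of the 100 most abundant rearrangements, amino acid clonotypes, templates in place of rearrangements, the permutation block and leaving out each experiment. Libraries share an experiment code, which pairs them. Their deviations from group means correlated above 0.1 in 6 of 18 same-experiment pairs (mean r = 0.0582). Libraries of a group shared at most 2.90% of productive rearrangements, so none was a duplicate.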

Additional observations from a re-analysis of the deposited data

How the results depend on the processing

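The alternatives other than leaving out an experiment gave 176 values, of which 145 were counted as keeping their direction and side of the threshold. This count includes experiment means as the unit for percent productive against other V genes, which keep the value by construction and were counted without a p. Their exact sign-flip p was 0.25 for TCRBV20-01, TCRBV24-01 and TCRBV30-01 and 0.75 for TCRBV23-01, so that none was past the threshold. Without the 100 most abundant rearrangements the TCRBV20-01 template contrasts were no longer past it, at -0.13 (clonal) and -0.00733 (CX3CR1+) points, and 3 uncalled contrasts changed sign, with TCRBV24-01 at 0.125 (clonal) and 0.254 (CX3CR1+) and TCRBV23-01 at 0.0177 (CX3CR1+). With non-productive rearrangements included, TCRBV24-01 templates in CX3CR1+ cells passed (-0.58 points, exact p = 0.037), and its rearrangement contrast was -0.0851. The lower percent productive of TCRBV20-01 in CX3CR1+ cells and TILs did not pass at a minimum of 2 templates (-5.18 points), at equal depth (-4.15) or by templates (-2.42), nor relative to all other V genes (-1.11, an alternative chosen after seeing the data). At a minimum of 2 templates TCRBV30-01 against other V genes was -13.5 points and did not pass (exact permutation p = 0.130). By amino acid sequences the TCRBV20-01 TIL difference was 34.4 points (exact permutation p = 0.0741).

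Without the replicate block, 26 of 28 calls were on the same side, the exceptions being TCRBV24-01 out-of-frame shares, which passed (-0.70 points, exact permutation p = 0.0368), and the TCRBV24-01 TIL difference, which did not (31.4 points, exact permutation p = 0.143). With experiment means as the replicate block, the percent productive of TCRBV24-01 minus that of other genes was -40.5 points, the same mean by construction. It did not pass in this setting (exact sign-flip p = 0.25, the smallest possible).

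Other sign changes were of values that passed in neither setting. At a minimum of 2 templates, rearrangement contrasts were -0.31 (TCRBV20-01), -0.13 (TCRBV24-01), and, in CX3CR1+ cells, -0.0932 (TCRBV24-01) and 0.0140 (TCRBV30-01), out-of-frame contrasts -0.11 (TCRBV20-01) and 0.0474 (TCRBV30-01), percent productive of TCRBV24-01 -3.58, and TCRBV23-01 against other genes 0.137. At equal depth they were -0.0772 (TCRBV20-01), 0.00877 (TCRBV30-01 in CX3CR1+ cells) and -0.18 (percent productive of TCRBV24-01). On the log2 scale TCRBV20-01 rearrangements were at -0.0156 and TCRBV23-01 templates at -0.36, unique CDR3 amino acid sequences of TCRBV20-01 at -0.000904, and by templates the percent productive of TCRBV24-01 at -4.14 and that of TCRBV23-01 against other genes at 4.02. The causes were not tested.

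Leaving out 1 experiment changed the sign of no called contrast, but the percent productive contrast of TCRBV20-01 ran from -4.41 to -1.83 points, and the TIL difference from 18.2 to 50.8 points for TCRBV20-01 and from 19.0 to 39.6 points for TCRBV24-01. Such fits have no test of their own here. With 3 experiments the tests cannot go below the stated p. TIL libraries hold 5 to 88 rearrangements per member, and their percents are wide accordingly.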
